A study of Mus musculus with 10 samples.

Results

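The genes described here encode the constitutive proteasome, the protease that degrades ubiquitin-tagged proteins, together with its activators and assembly factors. They were taken by name from the deposited count table: every gene whose symbol begins with Psm, a letter from a to g and a digit, without the 3 inducible catalytic subunits (Psmb8, Psmb9 and Psmb10) and without 5 pseudogenes marked -ps. This left 47 of the 55291 genes in the table, and the rule used names, not measured values. The assay was bulk RNA sequencing of mouse regulatory T cells (Treg cells) purified by cell sorting, in 10 libraries. Treg cells are a CD4+ T cell class that restrains immune responses and is defined by the transcription factor Foxp3. Every group was taken from mice of the Foxp3YFP-cre strain, whose Foxp3 locus drives a fluorescent protein and Cre recombinase, so the allele was common to all. The LN group held 4 libraries of Treg cells from lymph nodes of tumour-free mice, given no treatment. The Hepa1-6 group held 4 libraries of Treg cells from subcutaneous tumours of the Hepa1-6 mouse hepatoma line, taken 23 days after injection, and the E.G7 group held 2 libraries from subcutaneous tumours of the E.G7 mouse lymphoma line, taken after 21 days. The labels used here state no mouse age. The tumour groups therefore differ from LN in tissue as well as in the presence of a tumour, and from each other in day and tumour line. Nothing states that libraries of a group came from separate mice, and each p-value therefore reflects library-to-library spread, which may be technical.

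The 26S proteasome consists of a barrel-shaped 20S core, built from stacked rings of alpha and beta subunits, and a 19S cap that recognises, unfolds and feeds in ubiquitinated proteins. Of the beta subunits in the constitutive core only Psmb5, Psmb6 and Psmb7 cut peptide bonds; in lymphoid cells and under interferon-gamma they are partly replaced by Psmb8, Psmb9 and Psmb10, giving the immunoproteasome. Dedicated chaperones assemble core and cap, and other activators can take the cap's place on the core. The transcription factor Nfe2l1 (also called NRF1) is known to induce the subunit genes together when proteasome activity falls short.

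By role, the 47 genes comprised 31 core and cap subunits (14 of the 20S core and 17 of the 19S cap), 3 chaperones of the 19S cap, 4 chaperones of the 20S core, 5 genes for 20S activators, the regulator Psmf1, 2 tissue-specific core subunits, and Psmc3ip. The label does not describe all of them. Psme1 and Psme2 are themselves inducible by interferon-gamma, Psma8 belongs to the testis and Psmb11 to the thymic cortex, and Psmc3ip, a meiotic recombination factor, matches only by name and is no proteasome gene. Counts were high enough to test 46 of the 47, all but Psmb11, and 45 were listed in the deposited tables of FPKM (fragments scaled by gene length and library size), which omit Psma8 and Psmb11.

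The 4 upstream stretches below show promoters of subunits and chaperones whose levels are described further on. Each is written 5′ to 3′ on the gene's strand and ends at or shortly before an exon of the count table, holding no exonic base of it; the Psmd9 stretch lies inside that gene's span, between exons, because the table also lists Psmd9 exons farther upstream. Sequences are from RefSeq, build GRCm38.p6 (mm10). Capitals in the first 3 mark TGACNNNGC, the core of the antioxidant response element that Nfe2l1 and Nfe2l2 bind with small Maf proteins. Capitals in the last, of the chaperone gene that moved in opposite directions in the tumour models, mark CCGGAAG, a string bound by ETS-family factors. The Psmb5 stretch is chr14:54618023-54618172 on the minus strand, that of Psmb6 chr11:70525207-70525356 on the plus strand, that of Psmd9 chr5:123228040-123228189 on the plus strand and that of Psmg1 chr16:95990961-95991110 on the minus strand.
Psmb5: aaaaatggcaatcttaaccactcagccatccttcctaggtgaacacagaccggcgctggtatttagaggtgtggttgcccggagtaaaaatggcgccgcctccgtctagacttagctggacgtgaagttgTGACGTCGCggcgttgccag
Psmb6: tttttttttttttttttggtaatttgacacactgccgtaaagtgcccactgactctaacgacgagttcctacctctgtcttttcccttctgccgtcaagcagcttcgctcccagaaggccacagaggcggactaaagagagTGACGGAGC
Psmd9: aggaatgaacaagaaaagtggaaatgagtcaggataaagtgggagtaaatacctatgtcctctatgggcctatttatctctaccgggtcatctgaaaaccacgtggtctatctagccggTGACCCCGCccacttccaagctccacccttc
Psmg1: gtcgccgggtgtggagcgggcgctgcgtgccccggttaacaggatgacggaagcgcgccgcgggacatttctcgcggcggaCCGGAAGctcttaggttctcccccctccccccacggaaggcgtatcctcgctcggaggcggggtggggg
A promoter window was given for 39 of the 47 genes (none for Psmb7, Psmb1, Psmb2, Psmc3, Psmd3, Psmd7, Psmg2 and Psma8). On either strand of the 250 bases before the start, TGACNNNGC occurred in 5 of the 39 (12.8%; Psmb5, Psmb6, Psmc6, Psmd12 and Psmd9), beside 11.5% of all 27025 genes with a window. CCGGAAG occurred in 13 of 39 (33.3%, beside 7.83%), GCGCANGCG, the string of the respiratory factor also called NRF1, in 6 (15.4%, beside 5.86%), and GGGCGG, the GC box, in 21 (53.8%, beside 35.4%). CCAAT occurred in 14 (35.9%, beside 37.5%) and CACGTG, the E-box, in 3 (7.69%, beside 6.86%). Matches of different strings may share bases, and these are counts of letters, not of occupied sites.

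Library depth ran from 22665563 to 24472849 counts in LN, 26224286 to 26665325 in Hepa1-6 and 26585350 to 26663336 in E.G7. Mitochondrial transcripts took 1.67% to 2.07%, 1.26% to 1.48% and 1.70% to 1.96% of counts. Levels below are in CPM, counts scaled to a common library size with TMM factors, unless FPKM is named. The Treg label was checked with fixed markers. Foxp3 was detected in every library, with 94.1 to 119 CPM in LN, 73.8 to 97.3 in Hepa1-6 and 47.1 to 53.3 in E.G7. The 5 Treg markers together summed to 2032 to 2204, 3298 to 3439 and 2518 to 2608 CPM, but moved apart. Ctla4 and Tnfrsf18 rose in both tumour groups, Foxp3 and Ikzf2 fell in both, and Il2ra fell in E.G7. When libraries were scaled on pan T cell genes, the falls of Foxp3 in Hepa1-6 and of Ikzf2 in both did not pass. Of 10 pan T cell markers 7 fell and 2 rose in Hepa1-6, and 6 fell and none rose in E.G7, with sums of 6314 to 6785 CPM in LN, 5291 to 5460 in Hepa1-6, then 5276 and 5355 in E.G7. RNA of other cells was present in the tumour groups. The 14 macrophage and neutrophil markers summed to 25.3 to 37.3 CPM in LN, 3962 to 4282 in Hepa1-6 and 747 to 778 in E.G7, and all 14 were higher in each tumour group. The 12 hepatoma markers summed to 28.8 to 34.8, 2109 to 2286 and 125 to 140.3 CPM. Serpina1a was at 0 in all groups, Krt19 in LN, and Ttr and Fgb in E.G7. Of the 8 tested hepatoma markers, 8 rose in Hepa1-6, while in E.G7 5 rose and Afp fell. The 10 CD8 T and NK markers summed to 64.9 to 76.4, 1191 to 1285 and 405 to 417 CPM, and 9 rose in Hepa1-6 and 8 in E.G7. Klrb1c did not pass in either (-0.71 and -0.09), nor did Ncr1 in E.G7. With upper-quartile (-0.89) and total-count scaling (-0.95) Klrb1c was called lower in Hepa1-6. The 10 stromal and endothelial markers summed to 225 to 242, 1118 to 1207 and 179 to 208 CPM. Of these 10, 8 rose in Hepa1-6 and 9 in E.G7, while the endothelial gene Pecam1 fell in both (by 1.65 and 1.53 on the log2 scale). Trap1a, a tumour antigen gene, stood at 121 and 132 CPM in E.G7 and at most 0.2 CPM elsewhere. It came from a list of 7 immature thymocyte and lymphoma genes. These summed to 20.1 to 21.3 CPM in LN, 192 to 203 in Hepa1-6 and 219 to 228 in E.G7. Rag1 was at 0 in all groups, and Rag2 in LN and E.G7. Of the 4 tested, 4 rose in E.G7 and 2 in Hepa1-6. The latter were Cd8a and Cd8b1, which are also among the CD8 T and NK markers. Dntt and Trap1a were lower in Hepa1-6 than in E.G7, while Cd8a and Cd8b1 were higher. The 8 B cell markers summed to 850 to 962 CPM in LN, 393 to 466 in Hepa1-6 and 639 to 648 in E.G7. The part of these cells in the proteasome results was not tested. In bulk samples, fewer cells of a type and less RNA per cell cannot be told apart.

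Most of the tested genes of the set were higher in the libraries from both tumours than in those from lymph node. In Hepa1-6 against LN, 37 of the 46 tested genes rose and 3 fell at an adjusted p under 0.05 (edgeR's quasi-likelihood test with Benjamini-Hochberg adjustment over all 20068 genes tested), where 37.0% of all tested genes rose and 31.1% fell. In E.G7 against LN, 38 rose and 2 fell, where 32.7% of all tested genes rose and 27.2% fell. The median log2 fold change of the 46 was 0.46 in Hepa1-6 and 0.67 in E.G7, beside 0.04 and 0.01 over all genes. CPM values of the groups compared did not overlap for 37 of the 46 in Hepa1-6 against LN and 41 in E.G7 against LN, where 61.8% and 69.2% of all tested genes did not overlap. These comparisons share the LN libraries and are not independent of each other.

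The core and cap subunits accounted for most of these counts. All 31 rose in Hepa1-6, with log2 fold changes from 0.19 (Psmd4) to 1.03 (Psma5) and a median of 0.46. In E.G7, 30 of 31 rose, with a median of 0.79 and a highest value of 1.35 (Psmb7); the exception was Psmd4. The summed level of the 31 was 4220.0, 4583, 3935 and 4346 CPM in the LN libraries, 5902, 5767, 6082 and 6312.5 in the Hepa1-6 libraries and 7112 and 7239 in the E.G7 libraries. The groups did not overlap in this sum, and E.G7 was highest. As a share of all counts before scaling, the 31 genes took 0.461% ± 0.023 (SD, n = 4) in LN, 0.552% ± 0.019 (n = 4) in Hepa1-6 and 0.729% ± 0.016 (n = 2) in E.G7.

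**Figure D1:**
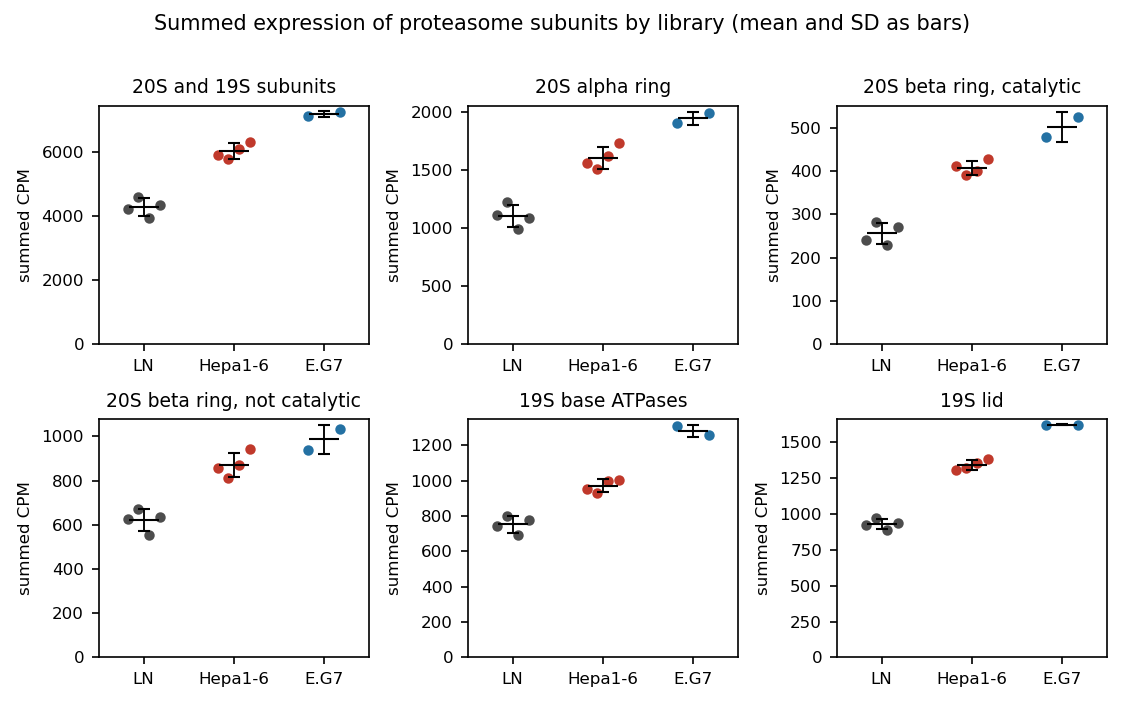
Summed CPM (vertical axes, from 0) of the 31 core and cap subunits and of 5 of their groups in each library, with points for libraries and bars for the mean and SD of 4 LN, 4 Hepa1-6 and 2 E.G7 libraries. In every panel the LN libraries lie below those of both tumour groups.

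How many subunits passed in Hepa1-6 depended on the scaling. With scaling to total counts 23 of 31 rose, with a median of 0.23 while the median of all genes was -0.18, and the estimates turned to -0.03 for Psma3, -0.01 for Psmc2 and -0.04 for Psmd4. With upper-quartile scaling 26 rose (median 0.28, all genes -0.13). When libraries were instead scaled on 10 genes shared by T cells (pan T cell gene scaling), all 31 rose (median 0.76, all genes 0.33). None of the 31 fell past the threshold under these scalings. In E.G7 30 or 31 rose under each of them. Over all genes, the share of calls that were higher moved from 54.3% to 42.6% with total counts and 70.2% with pan T cell genes in Hepa1-6 against LN, and from 54.6% to 49.8% and 70.5% in E.G7 against LN.

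**Figure D2:**
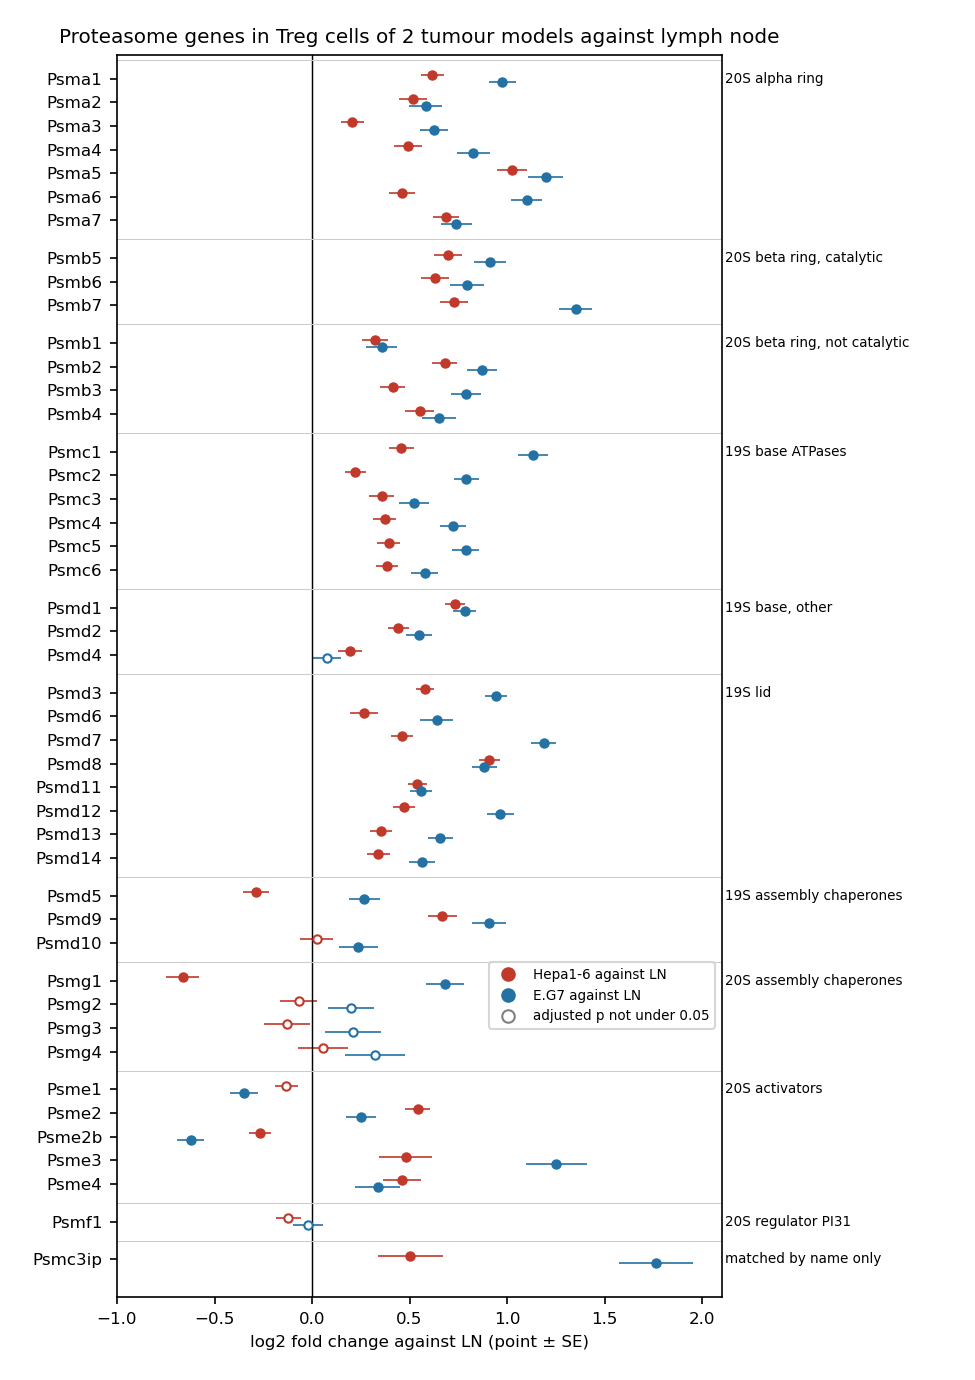
Log2 fold change against LN (horizontal axis, point and SE) of 45 of the 46 tested genes by role, in Hepa1-6 (red) and E.G7 (blue); open points have an adjusted p not under 0.05, and Psma8, with few counts, is left out. Core and cap subunits lie to the right of 0 in both comparisons, while chaperones and activators lie on both sides.

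The alpha ring, which gates entry to the core, rose in all 7 of its subunits in each tumour group, with median log2 fold changes of 0.52 in Hepa1-6 and 0.83 in E.G7. Psma5 rose most in both. It stood at 81.4, 86.6, 66.6 and 72.6 CPM in LN, 154, 149.5, 149.4 and 173 in Hepa1-6 and 171 and 181 in E.G7, so every tumour library was above every LN library. Its log2 fold change was 1.03 ± 0.08 (SE; edgeR adjusted p = 7.63e-09) in Hepa1-6 and 1.20 ± 0.09 (edgeR adjusted p = 1.37e-08) in E.G7, a level 2.04 and 2.29 times that of LN. At the other end, Psma3 read 246, 263, 225 and 239 CPM in LN, 261, 266, 291 and 305 in Hepa1-6, and 371 and 381 in E.G7. Hepa1-6 and LN overlapped for Psma3, with a log2 fold change of 0.21 ± 0.06 (edgeR adjusted p = 0.00655), which was not past the threshold under upper-quartile or total-count scaling. In E.G7 the rise of Psma3 was 0.63 ± 0.07. Psma2 had the smallest rise of the ring in E.G7, 0.58 ± 0.09, and a like value of 0.52 ± 0.07 in Hepa1-6. Psma6, in contrast, read 98.2 to 121 CPM in LN, 139 to 162 in Hepa1-6, then 228 and 239 in E.G7, with log2 fold changes of 0.46 and 1.10.

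The 3 constitutive catalytic subunits rose in both tumour groups with no overlap in CPM between any of the 3 groups, narrowly so for Psmb6 between the tumours. In FPKM the tumour groups overlapped for Psmb6 (107.9 in Hepa1-6 replicate 4, 107.4 in E.G7 replicate 1). Between the tumour groups only Psmb7 passed the threshold. Psmb5, which carries the chymotrypsin-like activity, stood at 70.7, 81.9, 65.3 and 76.8 CPM in LN, 119, 115, 121 and 123 in Hepa1-6 and 129.6 and 148 in E.G7. Its log2 fold changes were 0.70 ± 0.07 (edgeR adjusted p = 2.76e-07) and 0.91 ± 0.08 (edgeR adjusted p = 1.31e-07). All tumour libraries were above all LN libraries, and those of E.G7 were the highest. Psmb6, with the caspase-like activity, stood at 113, 133, 111 and 138 CPM in LN, 194, 182, 187 and 203 in Hepa1-6 and 203 and 226 in E.G7, with log2 fold changes of 0.63 ± 0.07 and 0.79 ± 0.09. Psmb7, with the trypsin-like activity, stood at 57.0, 67.6, 53.3 and 55.6 CPM in LN, 98.5, 92.9, 93.2 and 102 in Hepa1-6 and 146 and 152 in E.G7, with log2 fold changes of 0.73 ± 0.07 and 1.35 ± 0.08. Psmb7 had the largest rise of the 31 subunits in E.G7, at 2.55 times the LN level. Of the exonic bases of Psmb7, 11.8% overlap exons of Nek6, and 12.1% of those of Psmb5 overlap Mir686; the files do not say how such reads were assigned.

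**Figure D3:**
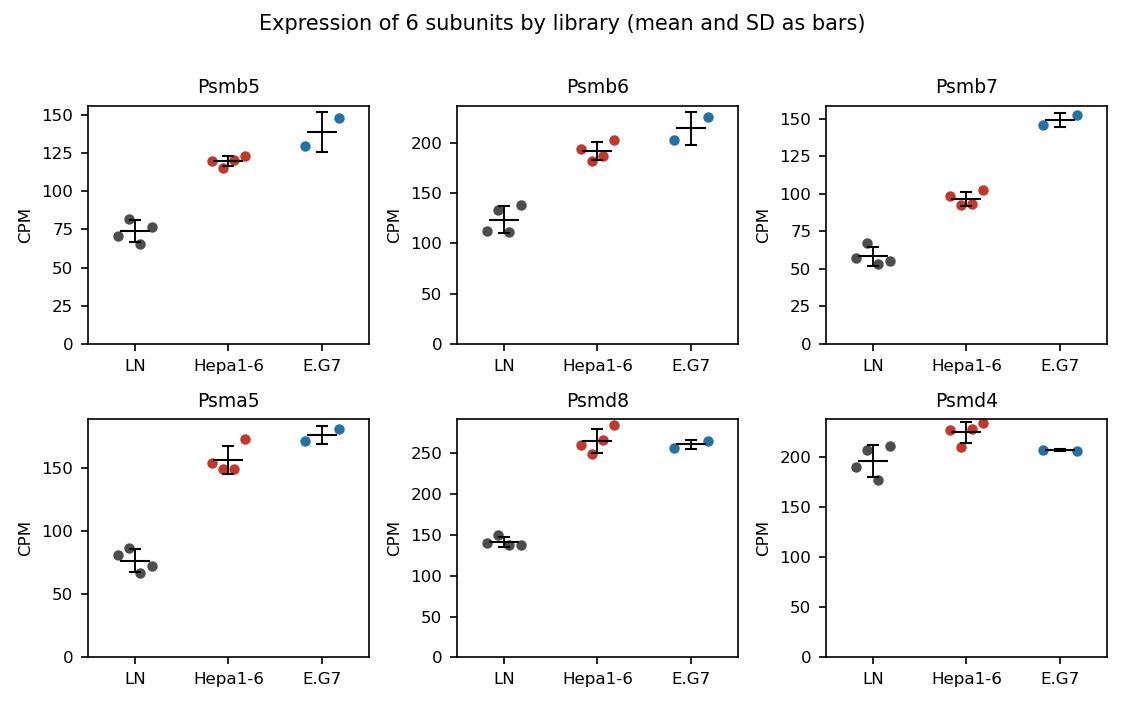
CPM (vertical axes, from 0) of 6 subunits in each library, with bars for mean and SD. The catalytic genes Psmb5, Psmb6 and Psmb7, and also Psma5 and Psmd8, separate LN from the tumour groups. Of the catalytic genes only Psmb7 passed the threshold between the tumour groups. The ubiquitin receptor gene Psmd4 lies near 200 CPM in all groups.

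The other 4 beta subunits, which close the ring without cutting, rose as well, with medians of 0.48 and 0.72. Psmb2 rose most, by 0.68 ± 0.06 in Hepa1-6 and 0.87 ± 0.08 in E.G7, with 124 to 149 CPM in LN, 213 to 239 in Hepa1-6, then 241 and 268 in E.G7. Psmb1 rose least, by 0.32 ± 0.07 and 0.36 ± 0.08, and its Hepa1-6 value was not past the threshold under upper-quartile scaling (0.14) or total-count scaling (0.09). On the FPKM scale, which allows for gene length, Psmb2 had the highest mean of the 31 subunits in all 3 groups, at 116 in LN, 184 in Hepa1-6 and 210 in E.G7. The lowest mean was that of Psmb7 in LN (17.2 FPKM), Psmc2 in Hepa1-6 (26.5) and Psmd1 in E.G7 (33.1). These levels depend on the exon lengths used by the depositors.

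Because Psmb5, Psmb6 and Psmb7 are exchanged for Psmb8, Psmb9 and Psmb10, the FPKM ratio of each pair was taken within each library, which removes any scaling between libraries. Psmb5 over Psmb8 was 0.766, 0.726, 0.720 and 0.750 in LN, 0.959, 0.934, 0.954 and 0.926 in Hepa1-6 and 1.16 and 1.27 in E.G7. Psmb6 over Psmb9 averaged 0.861 ± 0.068 (SD, n = 4) in LN, 1.27 ± 0.02 (n = 4) in Hepa1-6 and 1.36 ± 0.06 (n = 2) in E.G7. Psmb7 over Psmb10 averaged 0.201 ± 0.012, 0.287 ± 0.012 and 0.611 ± 0.016. For each of the 3 pairs the groups did not overlap and the order was LN, Hepa1-6, E.G7; these ratios are a description without a test. The inducible partners themselves moved less. Psmb8 rose by 0.35 and 0.20 on the log2 scale, Psmb9 did not pass the threshold (0.07, edgeR adjusted p = 0.219, and 0.13, edgeR adjusted p = 0.0752), and Psmb10 rose by 0.22 in Hepa1-6 and fell by 0.25 in E.G7. With total-count scaling neither Psmb8 (0.12 and 0.11) nor the Hepa1-6 value of Psmb10 (-0.01) passed and Psmb9 was lower in Hepa1-6 (-0.16), while with pan T cell genes Psmb9 was higher in both (0.37 and 0.44) and the E.G7 value of Psmb10 turned to 0.06. Upper-quartile scaling lost the calls on Psmb8 in E.G7 (0.08) and Psmb10 in Hepa1-6 (0.04), and RLE scaling called Psmb9 higher in E.G7 (0.18).

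**Figure D4:**
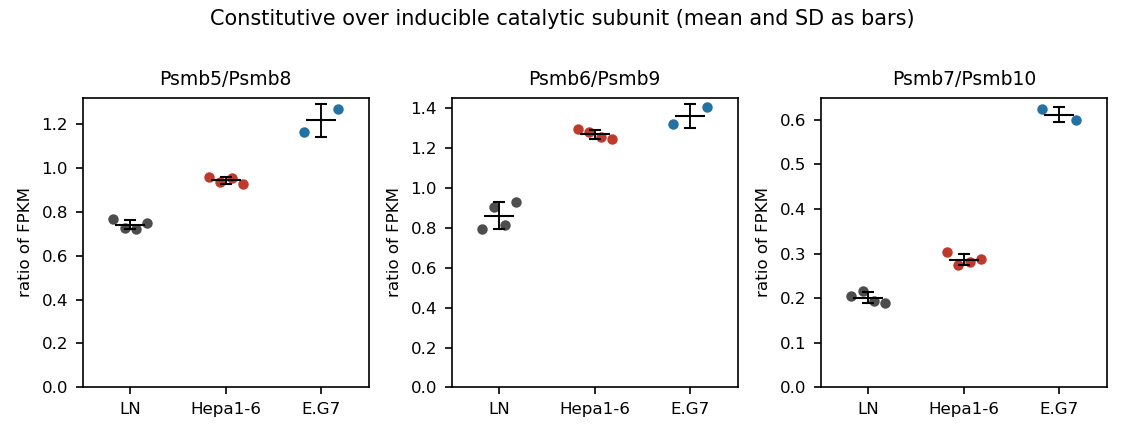
Ratio of FPKM (vertical axes, from 0) of each constitutive catalytic subunit to the inducible subunit that can replace it, in each library, with bars for mean and SD. All 3 ratios are lowest in LN, and Psmb7 over Psmb10 is most set apart in E.G7, at 0.611 beside 0.201 in LN.

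The 6 ATPases that form the motor at the base of the cap rose in both tumour groups, without overlap with LN, and their medians were 0.38 in Hepa1-6 and 0.76 in E.G7. Psmc1 rose most, with 117 to 139.7 CPM in LN, 167 to 192 in Hepa1-6 (0.46 ± 0.07), then 295 and 279 in E.G7 (1.14 ± 0.08, edgeR adjusted p = 3.69e-09). Psmc2 rose least in Hepa1-6, from 117, 121, 109 and 113 CPM in LN to 140.3, 128, 132 and 136 (0.22 ± 0.05), but by 0.79 ± 0.06 in E.G7, where it read 205 and 193. Psmc3 had the smallest rise of the 6 in E.G7, 0.52 ± 0.08, with 0.36 ± 0.06 in Hepa1-6. In Hepa1-6 Psmc2 did not pass with upper-quartile (0.04) or total-count scaling (-0.01), nor Psmc3 with total-count scaling (0.12).

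Of the other base subunits, the scaffold gene Psmd1 rose by 0.73 ± 0.05 in Hepa1-6 and 0.78 ± 0.06 in E.G7. Psmd4, the gene of a receptor for ubiquitin chains, was the subunit that changed least. It read 190.5, 208, 177 and 211 CPM in LN, 227, 210.0, 229 and 234 in Hepa1-6 and 208 and 207 in E.G7. Both tumour groups overlapped LN. Its log2 fold change of 0.19 ± 0.06 in Hepa1-6 passed (edgeR adjusted p = 0.00914), without passing under upper-quartile scaling (0.01) or total-count scaling (-0.04), and that in E.G7 was 0.08 ± 0.07 (edgeR adjusted p = 0.393).

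All 8 lid subunits rose in each tumour group, with medians of 0.47 and 0.77. Psmd8 had the largest rise of the lid in Hepa1-6. It read 140.2, 150.4, 137 and 138 CPM in LN, 261, 249.8, 267 and 285 in Hepa1-6 and 257 and 265 in E.G7, with log2 fold changes of 0.91 ± 0.05 (edgeR adjusted p = 2.83e-10) and 0.88 ± 0.06 (edgeR adjusted p = 5.94e-09). The tumour groups overlapped each other and lay above LN. Psmd7, the partner of the lid's deubiquitinase Psmd14, read 91.8, 100.2, 88.4 and 87.9 CPM in LN, 126, 125.1, 125.1 and 131 in Hepa1-6 and 205 and 214 in E.G7. It rose by 0.46 ± 0.05 in Hepa1-6 and by 1.19 ± 0.06 in E.G7, so its groups separated fully. Psmd6 rose least in Hepa1-6 (0.26 ± 0.07, overlapping LN, and not past the threshold under upper-quartile or total-count scaling) and by 0.64 ± 0.08 in E.G7. Psmd11 rose by 0.54 ± 0.05 and 0.56 ± 0.06. Psmd13 and Psmd14 also did not pass in Hepa1-6 with total-count scaling (0.12 and 0.11).

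The assembly chaperones differed among themselves. Of the 3 chaperones of the cap, Psmd9 rose in both tumours (0.67 ± 0.07 and 0.91 ± 0.09), with 31.5 to 36.2 CPM in LN, 52.3 to 60.5 in Hepa1-6, then 66.6 and 64.0 in E.G7. Psmd5 read 109, 108, 95.9 and 105 CPM in LN, 80.7, 85.6, 95.6 and 80.4 in Hepa1-6 and 127 and 125 in E.G7. It was lower in Hepa1-6 and higher in E.G7 than in LN, without overlap, though the highest Hepa1-6 library lay just under the lowest of LN. The log2 fold changes of Psmd5 were -0.29 ± 0.07 (edgeR adjusted p = 0.00114) and 0.27 ± 0.08 (edgeR adjusted p = 0.00875). With pan T cell gene scaling the Hepa1-6 value turned to 0.01, and the rise in E.G7 was not past the threshold with upper-quartile scaling (0.15), with total-count scaling (0.18) or without E.G7 replicate 1 (0.26). Psmd10, also known as gankyrin, read 36.0 to 43.5 CPM in LN, 37.6 to 44.0 in Hepa1-6, then 46.3 and 47.8 in E.G7. Its log2 fold change was 0.02 ± 0.08 in Hepa1-6 (edgeR adjusted p = 0.819; lower with total-count scaling, -0.21, and higher with pan T cell gene scaling, 0.32) and 0.24 ± 0.10 in E.G7, where the edgeR adjusted p of 0.0499 only just passed and did not pass without either E.G7 library (0.113 without replicate 1 and 0.200 without replicate 2). It also did not pass without LN replicate 1 or 3 or without Hepa1-6 replicate 1, 2 or 3, nor with upper-quartile or total-count scaling or a filter of at least 10 CPM.

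Psmg1 to Psmg4 encode the chaperones that nucleate the alpha ring. Psmg1 read 35.1, 41.7, 37.1 and 38.3 CPM in LN, 23.9, 21.7, 23.9 and 26.7 in Hepa1-6 and 58.7 and 63.4 in E.G7. The 3 groups were fully apart, with Hepa1-6 lowest and E.G7 highest. Psmg1 fell by 0.66 ± 0.08 on the log2 scale in Hepa1-6 (edgeR adjusted p = 3.81e-06) and rose by 0.68 ± 0.10 in E.G7 (edgeR adjusted p = 1.98e-05), and these directions held under all 4 other scalings. Its partner in a heterodimer, Psmg2, did not pass in either comparison, at -0.07 ± 0.10 (edgeR adjusted p = 0.547) and 0.20 ± 0.12 (edgeR adjusted p = 0.15), although other scalings called it lower in Hepa1-6 (-0.25 with upper-quartile, -0.30 with total counts) and higher in E.G7 (0.50 with pan T cell genes). The FPKM ratio of Psmg1 to Psmg2 within a library was 1.24, 1.71, 1.69 and 1.63 in LN, 1.09, 1.02, 0.997 and 1.01 in Hepa1-6 and 2.13 and 2.21 in E.G7. The groups did not overlap in this ratio, with LN replicate 1 closest to Hepa1-6. Psmg3 (-0.13 and 0.21) and Psmg4 (0.06 and 0.32) did not pass in either comparison at 10.2 to 21.1 CPM. Psmg3 was likewise lower in Hepa1-6 with upper-quartile (-0.31) and total-count scaling (-0.36) and higher in E.G7 with pan T cell gene scaling (0.51), and with the last Psmg4 was higher in both (0.35 and 0.63).

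**Figure D5:**
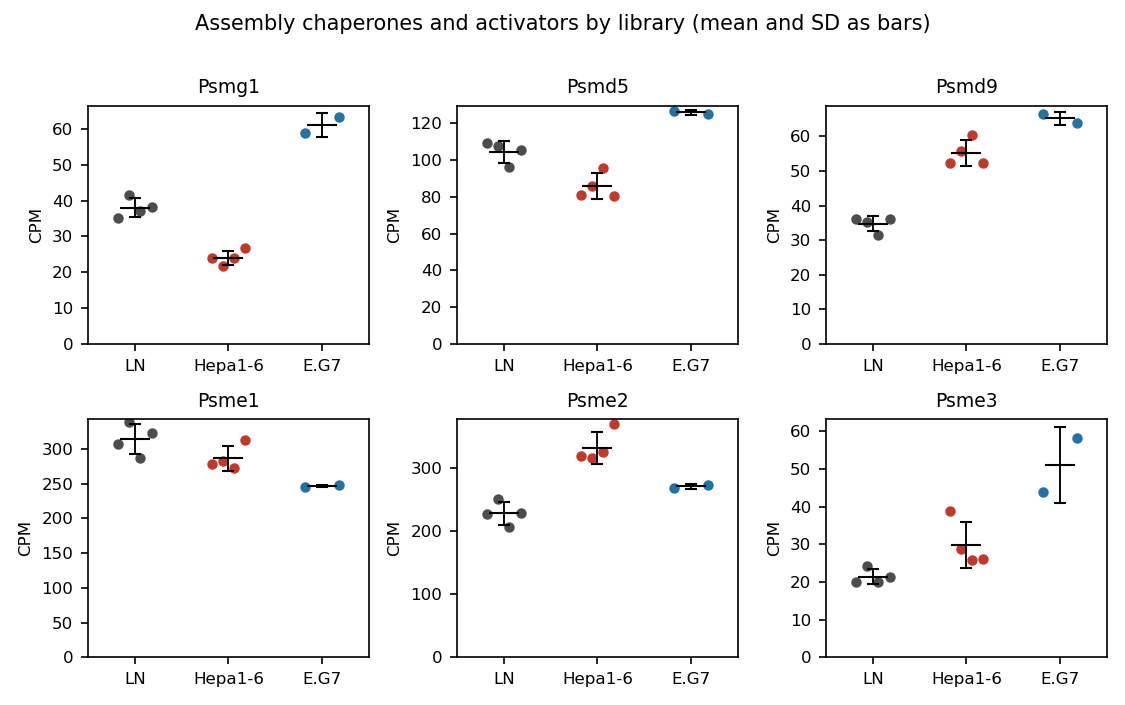
CPM (vertical axes, from 0) of 3 assembly chaperones and 3 activators of the 20S core in each library, with bars for mean and SD. Psmg1 and Psmd5 are below LN in Hepa1-6 and above it in E.G7, while Psme1 is lowest in E.G7 and Psme2 highest in Hepa1-6.

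Among the activators that bind the core in place of the cap, Psme1 and Psme2 form the interferon-inducible PA28 ring and moved apart. Psme1 read 307, 338, 288 and 323 CPM in LN, 278, 283, 273 and 313 in Hepa1-6 and 245 and 248 in E.G7. It did not pass in Hepa1-6 (-0.13 ± 0.06, edgeR adjusted p = 0.0546) and fell by 0.35 ± 0.07 in E.G7 (edgeR adjusted p = 0.000584), a fall that did not pass with pan T cell gene scaling (-0.04, edgeR adjusted p = 0.604). In Hepa1-6 Psme1 was called lower with upper-quartile (-0.31) and total-count scaling (-0.37) and higher with pan T cell gene scaling (0.16). Psme2 read 227, 251, 207 and 229 CPM in LN, 319, 316, 326 and 370.0 in Hepa1-6 and 269 and 274 in E.G7, above LN in every tumour library. It rose by 0.54 ± 0.06 in Hepa1-6 (edgeR adjusted p = 1.51e-06) and by 0.25 ± 0.08 in E.G7 (edgeR adjusted p = 0.0111), the latter not past the threshold with upper-quartile scaling (0.13), total-count scaling (0.16), a filter of at least 10 CPM (0.17) or without E.G7 replicate 2 (0.24). The FPKM ratio of Psme2 to Psme1 was 0.911 ± 0.020 (SD, n = 4) in LN, 1.45 ± 0.04 (n = 4) in Hepa1-6 and 1.38 ± 0.01 (n = 2) in E.G7.

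The level of Psme2 is uncertain because of its intronless copy Psme2b, whose annotated transcript matched that of Psme2 at 99.37% of 794 aligned bases. Reads counted to Psme2b read 132, 136, 128 and 134 CPM in LN, 106, 109, 105 and 120.3 in Hepa1-6 and 84.4 and 87.7 in E.G7, and fell by 0.27 ± 0.06 and 0.62 ± 0.07. With pan T cell gene scaling the Hepa1-6 value turned to 0.03. Psme2 and Psme2b together summed to 361 ± 21 CPM (SD, n = 4) in LN, 443 ± 32 (n = 4) in Hepa1-6 and 358 ± 6 (n = 2) in E.G7. In this sum E.G7 lay within the LN range and Hepa1-6 above it.

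The nuclear activators both rose. Psme3, which encodes PA28 gamma, read 20.1, 24.3, 19.9 and 21.4 CPM in LN, 38.9, 28.8, 25.8 and 26.1 in Hepa1-6 and 44.0 and 58.2 in E.G7. The libraries of a tumour group were widely spread, with all of them above LN, and the log2 fold changes were 0.48 ± 0.13 (edgeR adjusted p = 0.00555) and 1.25 ± 0.16 (edgeR adjusted p = 5.94e-06). The Hepa1-6 value was not past the threshold with upper-quartile (0.30) or total-count scaling (0.25). Psme4, which encodes PA200, rose by 0.46 ± 0.10 and 0.34 ± 0.12, without passing under total-count scaling in Hepa1-6 (0.23) or under upper-quartile (0.22) or total-count scaling (0.25) in E.G7. Psmf1, a regulator that binds the core, did not pass (-0.12 ± 0.06, edgeR adjusted p = 0.104, and -0.02 ± 0.08, edgeR adjusted p = 0.857). Other scalings called Psmf1 lower in Hepa1-6 (-0.30 with upper-quartile, -0.35 with total counts) or, with pan T cell genes, higher in both groups (0.17 and 0.29).

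The tissue-specific core subunits were nearly absent. Psma8 had 8, 0, 6 and 7 raw counts in LN, 28, 14, 19 and 19 in Hepa1-6 and 1 in each E.G7 library, and Psmb11 had 0 to 3 counts in every library. Psma8 was called higher in Hepa1-6 than in LN (log2 fold change 1.97 ± 0.59, edgeR adjusted p = 0.00815) and not called in E.G7 (edgeR adjusted p = 0.0739). Psmc3ip, matched by name only, rose by 0.50 ± 0.17 and 1.77 ± 0.19 from 2.7 to 4.2 CPM in LN, the Hepa1-6 value without passing under upper-quartile (0.33) or total-count scaling (0.27). Of its exonic bases, 21.2% overlap Mlx.

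The tumour groups were then compared with each other. In Hepa1-6 against E.G7, 22 of the 46 genes were lower and 4 higher, where 19.6% of all tested genes were lower and 26.1% higher; the median log2 fold change was -0.23, beside 0.06 over all genes. Among the 31 core and cap subunits 17 were lower in Hepa1-6 and none was higher; with total-count scaling 28 were lower. The other 14 did not pass, with values up to 0.12 (Psmd4). The largest differences were in Psmd7 (-0.73 ± 0.06, edgeR adjusted p = 1.60e-07), Psmc1 (-0.68 ± 0.08), Psma6 (-0.64 ± 0.08) and Psmb7 (-0.62 ± 0.09). By role, 5 of the 6 ATPases, 6 of the 8 lid subunits, 4 of the 7 alpha subunits and 2 of the 7 beta subunits were lower in Hepa1-6. Outside the subunits, Psmg1 (-1.34 ± 0.10, edgeR adjusted p = 1.60e-08), Psme3 (-0.77 ± 0.16) and Psmd5 (-0.56 ± 0.08) were lower in Hepa1-6. The 4 genes higher in Hepa1-6 were Psme1 (0.22 ± 0.07), Psme2 (0.29 ± 0.08), Psme2b (0.36 ± 0.07) and Psma8, the reverse of the direction in the 17 subunits. The call on Psme1 was lost with upper-quartile (0.15) and total-count scaling (0.07), and that on Psme2 with total-count scaling (0.15). Without E.G7 replicate 1, 2 genes were higher, and Psme2 (0.27) did not pass. Psmb5 (-0.21 ± 0.08, edgeR adjusted p = 0.0509) and Psmb2 (-0.19 ± 0.08, edgeR adjusted p = 0.0542) missed the threshold narrowly and passed under 14 and 12 of the 23 alternatives tried. The E.G7 group has only 2 libraries. Over all genes the share of calls that were higher in Hepa1-6 moved from 57.1% to 44.3% with total-count scaling.

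Proliferation markers moved with the subunits. All 16 cell cycle genes, among them Mki67, were higher in each tumour group than in LN and lower in Hepa1-6 than in E.G7, and together summed to 460 to 518 CPM in LN, 1311 to 1343 in Hepa1-6 and 2761 to 2949 in E.G7. The order of the groups was that of the summed core and cap subunits. Their part in the subunit levels was not tested.

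Other genes tied to the proteasome were taken from lists of partners and regulators. Of 9 tested partners outside the name rule, 7 rose and 1 fell in Hepa1-6, and 6 rose and none fell in E.G7. Over all tested genes, as above, 37.0% rose and 31.1% fell in Hepa1-6 and 32.7% and 27.2% in E.G7. Pomp, the maturation factor of the core, rose by 0.92 ± 0.07 and 0.80 ± 0.08, Txnl1, a cap-bound thioredoxin-like protein, by 1.04 ± 0.06 and 1.04 ± 0.07, and Adrm1, a ubiquitin receptor of the cap, by 0.57 ± 0.05 and 0.62 ± 0.07. Pomp read 104.5 to 112 CPM in LN, 178 to 236 in Hepa1-6, then 181 and 191 in E.G7, without overlap between LN and either tumour group. Of 8 genes of the Nfe2l1 axis, which holds the factor, its processing enzymes, its relative Nfe2l2, small Maf partners and the repressor Bach1, 6 rose and 1 fell in Hepa1-6, and 4 rose and 2 fell in E.G7, where 32.7% and 27.2% of all genes did. Nfe2l1 itself rose by 0.38 ± 0.07 in Hepa1-6 and did not pass in E.G7 (0.13 ± 0.08, edgeR adjusted p = 0.183); it did not pass in Hepa1-6 with total-count scaling (0.14) and was higher in E.G7 with pan T cell gene scaling (0.44). Nfe2l2 rose by 1.29 ± 0.06 and 0.26 ± 0.08 (the latter not past the threshold with upper-quartile scaling, 0.15, or total-count scaling, 0.17). Mafk rose by 1.13 ± 0.06 and 1.15 ± 0.07, and Maff by 2.72 ± 0.15 and 2.16 ± 0.17. The processing enzyme genes did not rise: Ngly1 fell in both tumour groups (-0.77 and -0.72), and Ddi2 fell in E.G7 without passing in Hepa1-6. With pan T cell gene scaling Ddi2 was higher in Hepa1-6 (0.43) and did not pass in E.G7 (-0.01).

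Upstream of the proteasome, the ubiquitin gene Ubb rose by 0.61 ± 0.05 in Hepa1-6 and 0.57 ± 0.06 in E.G7, and the gene of the ubiquitin-activating enzyme, Uba1, rose in Hepa1-6 (0.26 ± 0.05) without passing in E.G7 (0.14 ± 0.06, edgeR adjusted p = 0.0700). Uba1 did not pass in Hepa1-6 with upper-quartile (0.08) or total-count scaling (0.03), and was higher in E.G7 with RLE (0.18) and pan T cell gene scaling (0.44). Of 12 tested genes for shuttle receptors and the unfoldase p97 with its cofactors, 8 rose and 2 fell in Hepa1-6, and 7 rose and 1 fell in E.G7, beside the shares of all genes given above (37.0% and 31.1%, 32.7% and 27.2%). Zfand2a rose by 1.71 ± 0.07 and 0.85 ± 0.08, Vcp, which encodes p97, by 0.47 ± 0.06 and 0.34 ± 0.08, and the shuttle receptor gene Ubqln4 by 0.45 ± 0.09 and 0.29 ± 0.11, of which Ubqln4 did not pass with total-count scaling in either (0.22 and 0.21) nor in E.G7 with upper-quartile scaling (0.18).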

How the data were processed

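RNA of sorted Treg cells was sequenced on a BGISEQ-500, per the labels' protocols. The submitters' processing notes name HISAT2, featureCounts, Subread, RSEM and DESeq2 and build mm10, without versions or roles, and no source used here gives the strand. The authors deposited raw counts per gene for all 10 libraries, and separately FPKM per library for 12930 genes. Counts were tested with edgeR 4.0.16 (R 4.3.3) in 1 fit of the 3 groups after TMM scaling and filterByExpr, which left 20068 genes, with Benjamini-Hochberg adjustment and a threshold of 0.05; the biological coefficient of variation was 13.0%. CPM use the TMM-scaled library sizes. FPKM served for levels between genes, ratios and an alternative test with limma 3.58.1; DESeq2 1.42.0 and limma-voom were run on the counts, and other scalings, filters, subsets of groups and libraries left out in turn were tried. The scripts were tested on simulated data. Psme2 and Psme2b transcripts were aligned with BLASTN 2.17.0. Exons of 12 of the 47 genes overlap another gene's exons. Described in full are Psmb5, Psmb6, Psmb7, the genes with the highest and lowest fold change of each role and those with opposite changes. So are up to 3 genes of each related list by smallest adjusted p in Hepa1-6. Psma6, Psme1, Psme4, Psmf1, Psma8, Psmb11, Psmc3ip, Psmg3, Nfe2l1, Ngly1 and Ddi2 were added after their values were seen. The genes and lists were chosen with earlier results of these data known. A result of the ubiquitin gene list is not reported here.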

Additional observations from a re-analysis of the deposited data

Results flagged for a closer look

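Psmg1 and Psmd5 stand out because they were called in opposite directions against LN in the tumour models. The difference of Hepa1-6 against E.G7 was -1.34 for Psmg1 and -0.56 for Psmd5 on the log2 scale (edgeR adjusted p = 1.60e-08 and 2.57e-05). Because the genes were picked by those opposite calls, this difference follows from the choice and adds no support. For Psmd5 the Hepa1-6 value turned to 0.01 with pan T cell gene scaling. Its rise in E.G7 did not pass with upper-quartile (0.15) or total-count scaling (0.18).

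In 3 of the 92 groups of 4 libraries examined, 1 library lay apart from the others; chance gives about 1 in 20. Psmd12 read 87.6 CPM in LN replicate 3, where the other LN libraries read 99.5 to 101. Psmd9 read 31.5 CPM in LN replicate 3, beside 35.4 to 36.2. Psmd7 read 131.1 CPM in Hepa1-6 replicate 4, beside 125.1 to 126.1.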

How the results depend on the processing

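The count of genes higher than LN was 37 in Hepa1-6 and 38 in E.G7; it stayed within 26 to 41 and 34 to 43 over all alternatives. The 3 genes lower in Hepa1-6 became 7 with upper-quartile scaling, 8 with total-count scaling, 1 with pan T cell gene scaling and 5 with a filter of 10 CPM; the 2 lower in E.G7 became 1 with pan T cell gene scaling. In Hepa1-6 against E.G7, total-count scaling changed the 4 higher genes to 2 and the 22 lower genes to 38. Leaving out each library in turn gave 37 higher and 3 to 4 lower in Hepa1-6 against LN, 35 to 38 and 2 to 3 in E.G7 against LN, and 2 to 4 and 20 to 24 in Hepa1-6 against E.G7. With total-count scaling in Hepa1-6 against LN, the log2 fold change turned to -0.027 for Psma3, -0.011 for Psmc2, -0.039 for Psmd4 and -0.21 for Psmd10, and with pan T cell gene scaling to 0.0056 for Psmd5 and 0.026 for Psme2b; the cause was not tested. With a filter of at least 10 CPM on average, which left 9455 genes, 39.2% of them rose in Hepa1-6 and 37.4% in E.G7. This filter sets a floor and does not match genes to the level of the subunits. A replicate block gave 37 higher and 4 lower in Hepa1-6 against LN and 37 and 2 in E.G7 against LN. In Hepa1-6 against E.G7 the block gave 4 and 20. The deviations of same-numbered libraries correlated at -0.049 to 0.029, which cannot tell what the replicate numbers stand for. With 2 libraries in E.G7, their deviations mirror each other by construction. Among the named genes the block ended 1 call, that of Psmd9 in Hepa1-6 against E.G7. That call was also lost with a filter of at least 10 CPM (-0.21) and without Hepa1-6 replicate 1, 2 or 4. Without E.G7 replicate 1 the log2 fold change of Psmd9 was -0.22, and without E.G7 replicate 2 it was -0.27. With 2 libraries, E.G7 rests on the spread shared with the other groups.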
